A study of Rattus norvegicus with 68 samples.

Results

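Genes that restrain signalling through the extracellular signal-regulated kinase (ERK) were followed in the nasal lining of rats that inhaled formaldehyde. The set held 8 genes of the 14217 measured: the dual-specificity phosphatase genes Dusp1, Dusp4, Dusp5 and Dusp6, the Sprouty genes Spry1, Spry2 and Spry4, and Phlda1. They were chosen by name, with earlier results of these data known. Each was represented by the probe set of its symbol with the highest mean over all arrays. All 8 were on the array. Dusp4 (1388082_at), Dusp5 (1368124_at), Spry1 (1379380_at), Spry2 (1374864_at), Spry4 (1392529_at) and Phlda1 (1368860_at) had 1 probe set each. Dusp1 had 2, of which 1368146_at was used, and Dusp6 had 3, of which 1377064_at was used.

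The study exposed male F344/CrlBR rats, 8 weeks old at the start, to inhaled formaldehyde by the whole-body route, 6 h each day and 5 days each week. Epithelial cells were released with proteases from the nose at level II, where the lateral meatus and nasoturbinate were kept and the maxilloturbinate and olfactory lining were removed. Each of 68 Affymetrix Rat230_2 arrays held RNA from 1 animal, and the arrays formed 17 groups of 4 animals. At 5 d and at 13 w the groups breathed 0.7, 2, 6, 10 or 15 ppm and were set against 0 ppm, and at 4 w they breathed 2, 6, 10 or 15 ppm and were set against 0.7 ppm, where 0 ppm arrays were not analysed here. The 4 w reference was thus itself exposed. All animals shared strain, sex, age at start and chamber schedule. The submitters describe the preparation as mainly transitional with some respiratory epithelium, so it was a mixture of cells, and fewer cells of a type and less RNA per cell cannot be told apart in it.

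ERK is the last kinase of the cascade that runs from receptors such as those for epidermal growth factor (EGF) and fibroblast growth factor (FGF) through Ras and Raf. Active ERK switches on genes whose products turn the cascade down again. The dual-specificity phosphatases remove phosphate from ERK and related kinases, Sprouty proteins act between the receptor and Raf, and Phlda1 encodes a pleckstrin homology-like protein whose gene is induced downstream of ERK in human cells. Because they follow the activity of the cascade, transcripts of Dusp4, Dusp6, Spry2, Spry4 and Phlda1 have been used in human tumours as readouts of ERK signalling. In airway epithelium, growth factor signalling through ERK is known for its part in repair and proliferation after injury.

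Values are log2 signals as deposited, and changes are log2 differences ± SE from 1 limma fit to all arrays, with n = 4 animals in each group. A gene was called at a Benjamini-Hochberg adjusted p under 0.05 over 14217 genes. Signals of different probe sets are not comparable with each other, so each gene is compared only with itself. A group mean under 6 was treated as low signal, which applied to Phlda1 in several groups. Comparisons at the same time share their reference arrays and are not independent of each other.

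Across the series, array medians lay between 6.82 and 6.96 and arrays of a group correlated at 0.977 to 0.996. At 15 ppm, neutrophil marker genes were higher than in the reference for 6 of 6 measured genes at 5 d, 5 of 6 at 4 w and 2 of 6 at 13 w. The mean RNA integrity number was higher at 15 ppm than in the reference at each time, with 8.32 against 7.68 at 5 d, 8.72 against 8.20 at 4 w and 8.90 against 7.57 at 13 w (n = 4 in each group, and n = 3 in both groups at 13 w). The titles of exposed animals carry HCHO and those of 0 ppm animals carry codes beginning with ACO whose meaning is not given. Dose and code cannot be told apart.

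The 8 genes moved in different directions. At 15 ppm Dusp5 and Phlda1 were called higher and Spry1 and Spry2 lower at every one of the 3 times. Below 10 ppm the means of these genes did not follow dose steadily. Dusp6 was called at 15 ppm only, Dusp4 was called at 4 w only, and Dusp1 and Spry4 were called in no comparison. At 5 d, 0, 0, 1, 4 and 5 of the 8 genes were called from 0.7 to 15 ppm, where 0%, 0.0281%, 8.83%, 15.5% and 37.7% of all genes were called. At 4 w, 0, 0, 4 and 5 of the 8 were called at 2, 6, 10 and 15 ppm, where 0.0211%, 3.28%, 14.8% and 37.4% of all genes were called. At 13 w, 0, 0, 2, 4 and 5 of the 8 were called from 0.7 to 15 ppm, beside 0%, 0.00703%, 12.2%, 26.4% and 44.2% of all genes. With 5 of 8 called at 15 ppm beside 37.4% to 44.2% of all genes, the count alone says little about this set. What the values show is which members moved and which way. The median log2 change of the 8 genes at 15 ppm was 0.22, 0.27 and 0.26 at 5 d, 4 w and 13 w, beside -0.01, 0.01 and -0.02 over all genes. Large changes lay on both sides of this median. It is set by members with smaller changes and does not describe a shared rise.

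**Figure D1:**
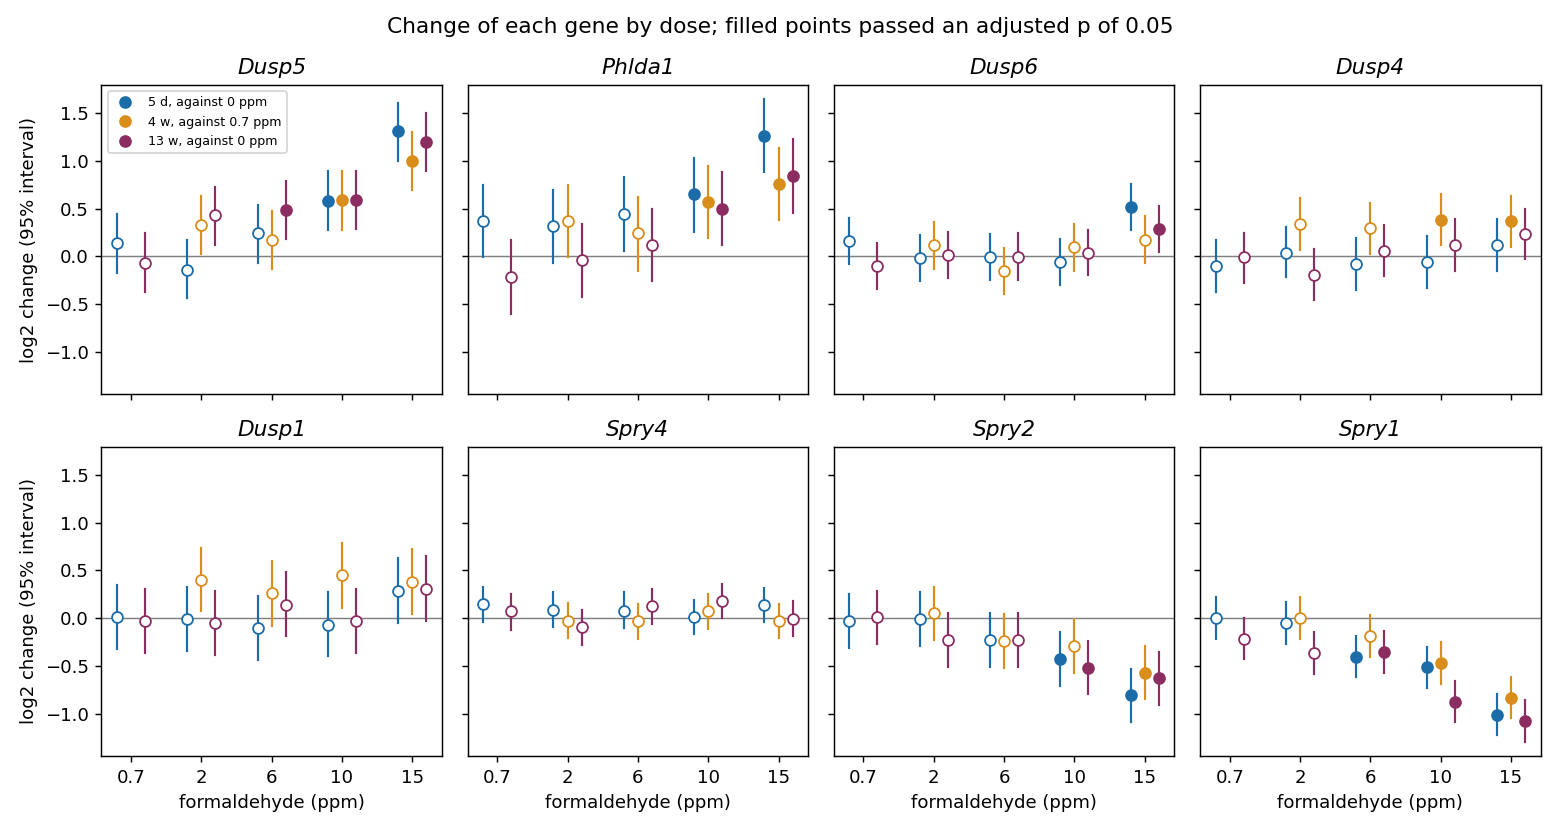
Log2 change of each of the 8 genes (vertical axis, with 95% intervals) against formaldehyde concentration in ppm, at 5 d and 13 w relative to 0 ppm and at 4 w relative to 0.7 ppm. Filled points passed an adjusted p of 0.05; at 15 ppm Dusp5 lies between 1.00 and 1.31 and Spry1 between -1.08 and -0.84, while Spry4 stays between -0.03 and 0.14.

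The sequences before the annotated starts of the genes are shown because the members moved in opposite directions. RefSeq windows of the GRCr8 build were found for 7 of the 8 genes, and the 200 bases before the start are given for the 5 genes whose window begins at the outermost annotated start. Capitals mark matches, on either strand, to a serum response element (CArG box), to the cyclic AMP response element TGACGTCA, to the ETS core CCGGAA or to the core TGAATG that is bound by Capicua, a repressor that ERK inactivates.
Dusp5, chr1:262543574-262543773, plus strand: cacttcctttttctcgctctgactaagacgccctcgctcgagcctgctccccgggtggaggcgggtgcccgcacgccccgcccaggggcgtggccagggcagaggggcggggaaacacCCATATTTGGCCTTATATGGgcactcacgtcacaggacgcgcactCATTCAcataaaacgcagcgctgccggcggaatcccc
Phlda1, chr7:48853490-48853689, plus strand: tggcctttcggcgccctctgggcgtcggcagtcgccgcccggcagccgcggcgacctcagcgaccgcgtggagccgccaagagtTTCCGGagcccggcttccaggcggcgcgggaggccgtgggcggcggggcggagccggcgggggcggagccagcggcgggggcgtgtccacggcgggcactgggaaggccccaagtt
Dusp1, chr10:17184653-17184852, plus strand: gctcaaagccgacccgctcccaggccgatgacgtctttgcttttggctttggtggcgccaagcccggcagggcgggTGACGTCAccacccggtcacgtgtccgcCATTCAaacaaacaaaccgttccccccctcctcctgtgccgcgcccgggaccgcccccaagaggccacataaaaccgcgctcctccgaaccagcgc
Spry2, chr15:89111927-89112126, minus strand: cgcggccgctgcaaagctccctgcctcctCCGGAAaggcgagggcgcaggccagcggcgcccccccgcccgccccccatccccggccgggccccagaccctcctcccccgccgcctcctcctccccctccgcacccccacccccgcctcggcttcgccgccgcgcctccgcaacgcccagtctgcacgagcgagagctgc
Spry4, chr18:30702547-30702746, minus strand: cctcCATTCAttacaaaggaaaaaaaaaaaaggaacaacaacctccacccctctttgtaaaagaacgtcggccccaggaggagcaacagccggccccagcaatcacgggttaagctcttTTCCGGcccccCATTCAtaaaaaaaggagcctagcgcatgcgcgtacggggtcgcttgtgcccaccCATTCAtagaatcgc

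The Dusp5 window held 2 CArG boxes side by side, and 0.0209% of the 33469 windows in the RefSeq table held 2 or more (1.16% held at least 1). The cyclic AMP response element was found in the Dusp1 window and in 1.46% of all windows. A Capicua core was found in the windows of Dusp1, Dusp5 and Dusp6 (1 each) and Spry4 (3), against 8.84% of all windows with at least 1 and 0.75% with 2 or more. The ETS core was found in the windows of Spry2, Spry4 and Phlda1 and in 11.3% of all windows, and the AP-1 site TGANTCA in none of the 8 windows of the 7 genes and in 4.97% of all. The windows of Spry1 and Dusp6 and 1 of the 2 Spry2 windows are not at the outermost annotated start and are not printed. These matches describe the letters in the windows and were not tested for use.

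Dusp5, which encodes a nuclear phosphatase specific for ERK, rose at 15 ppm at all 3 times. At 5 d its log2 signal was 9.31, 9.25, 9.14 and 9.29 in the 15 ppm animals, against 7.84, 8.12, 8.14 and 7.66 at 0 ppm. The lowest exposed animal lay a full log2 unit above the highest unexposed one. The log2 difference was 1.31 ± 0.15, a 2.48-fold increase (adjusted p = 4.19e-10). At 4 w the signal was 8.85, 9.11, 9.10 and 9.28 at 15 ppm, against 8.38, 7.69, 8.14 and 8.13 at 0.7 ppm, a log2 difference of 1.00 ± 0.15 (adjusted p = 3.34e-07). At 13 w it was 9.37, 9.23, 9.09 and 9.20 at 15 ppm, against 7.45, 8.25, 8.44 and 7.95 at 0 ppm, a log2 difference of 1.20 ± 0.15 (2.30-fold, adjusted p = 2.33e-09). The 15 ppm and reference animals did not overlap at any time, and the 0 ppm animals of 13 w were spread more widely (SD 0.43) than those at 15 ppm (SD 0.11).

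At 6 and 10 ppm Dusp5 was higher than in the reference by smaller amounts. At 10 ppm the log2 difference was 0.58 ± 0.15 at 5 d, 0.59 ± 0.15 at 4 w and 0.59 ± 0.15 at 13 w (adjusted p = 0.00458, 0.00445 and 0.00217), with groups that overlapped at 13 w only. At 6 ppm it was called at 13 w only, where the signal was 8.58, 8.67, 8.37 and 8.42 at 6 ppm, against 7.45, 8.25, 8.44 and 7.95 at 0 ppm, with overlapping groups (log2 difference 0.49 ± 0.15, adjusted p = 0.025). That call was lost without 0 ppm animal 225 or 230 or 6 ppm animal 316 or 317, with differences from 0.29 to 0.63 over all 8 ways of leaving out 1 animal, and with the 13 w arrays fitted alone. Over the 17 groups the mean of Dusp5 ran from 7.80 (2 ppm at 5 d) to 9.25 (15 ppm at 5 d). The 3 groups at 15 ppm were the highest, followed by the 3 groups at 10 ppm, and the widest gap between neighbours in the order, 0.41, lay between 10 ppm and 15 ppm at 4 w. It was the only 1 of 16 neighbouring gaps wider than the pooled SD of an animal, 0.22.

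Phlda1 rose at 10 and 15 ppm at all 3 times, from a low reference signal at 5 d and 4 w. At 5 d its log2 signal was 6.90, 7.64, 6.73 and 6.44 at 15 ppm, against 5.86, 5.84, 5.72 and 5.24 at 0 ppm. At 4 w it was 6.64, 6.85, 6.31 and 7.05 at 15 ppm, against 6.17, 5.99, 5.67 and 5.99 at 0.7 ppm. At 13 w it was 7.02, 6.95, 7.11 and 6.88 at 15 ppm, against 5.99, 6.35, 6.14 and 6.10 at 0 ppm. All 15 ppm animals lay above all reference animals of their time. The log2 differences were 1.26 ± 0.19, 0.76 ± 0.19 and 0.84 ± 0.19 at 5 d, 4 w and 13 w (adjusted p = 2.88e-07, 0.00105 and 0.000217). Because the reference means of 5.67 at 5 d and 5.95 at 4 w were low, no fold is given there; at 13 w the increase was 1.79-fold.

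At 10 ppm Phlda1 differed by 0.65 ± 0.19, 0.57 ± 0.19 and 0.50 ± 0.19 at 5 d, 4 w and 13 w (adjusted p = 0.0139, 0.034 and 0.0452), again with overlap at 13 w only. These calls depended on single animals more than those at 15 ppm. The call at 5 d was lost without 0 ppm animal 210 or 10 ppm animal 329 (differences from 0.50 to 0.74 over the 8 ways of leaving out 1 animal), and with 0.7 ppm as the reference, where the difference was 0.28 (adjusted p = 0.34). The call at 4 w was lost without 0.7 ppm animal 243, 245 or 250 or 10 ppm animal 333, 336 or 338 (0.47 to 0.64). The call at 13 w was lost without 0 ppm animal 225, 229 or 230 or 10 ppm animal 341, 346 or 349 (0.44 to 0.63). At 6 ppm and 5 d, where the difference of 0.44 ± 0.19 was not called (adjusted p = 0.139), it was called with array weights (0.43) and with a beta-actin measure of RNA integrity as a covariate (1.04). The 0 ppm animals themselves were higher at 13 w than at 5 d with no overlap, but that log2 difference of 0.48 ± 0.19 did not pass (adjusted p = 0.168).

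**Figure D2:**
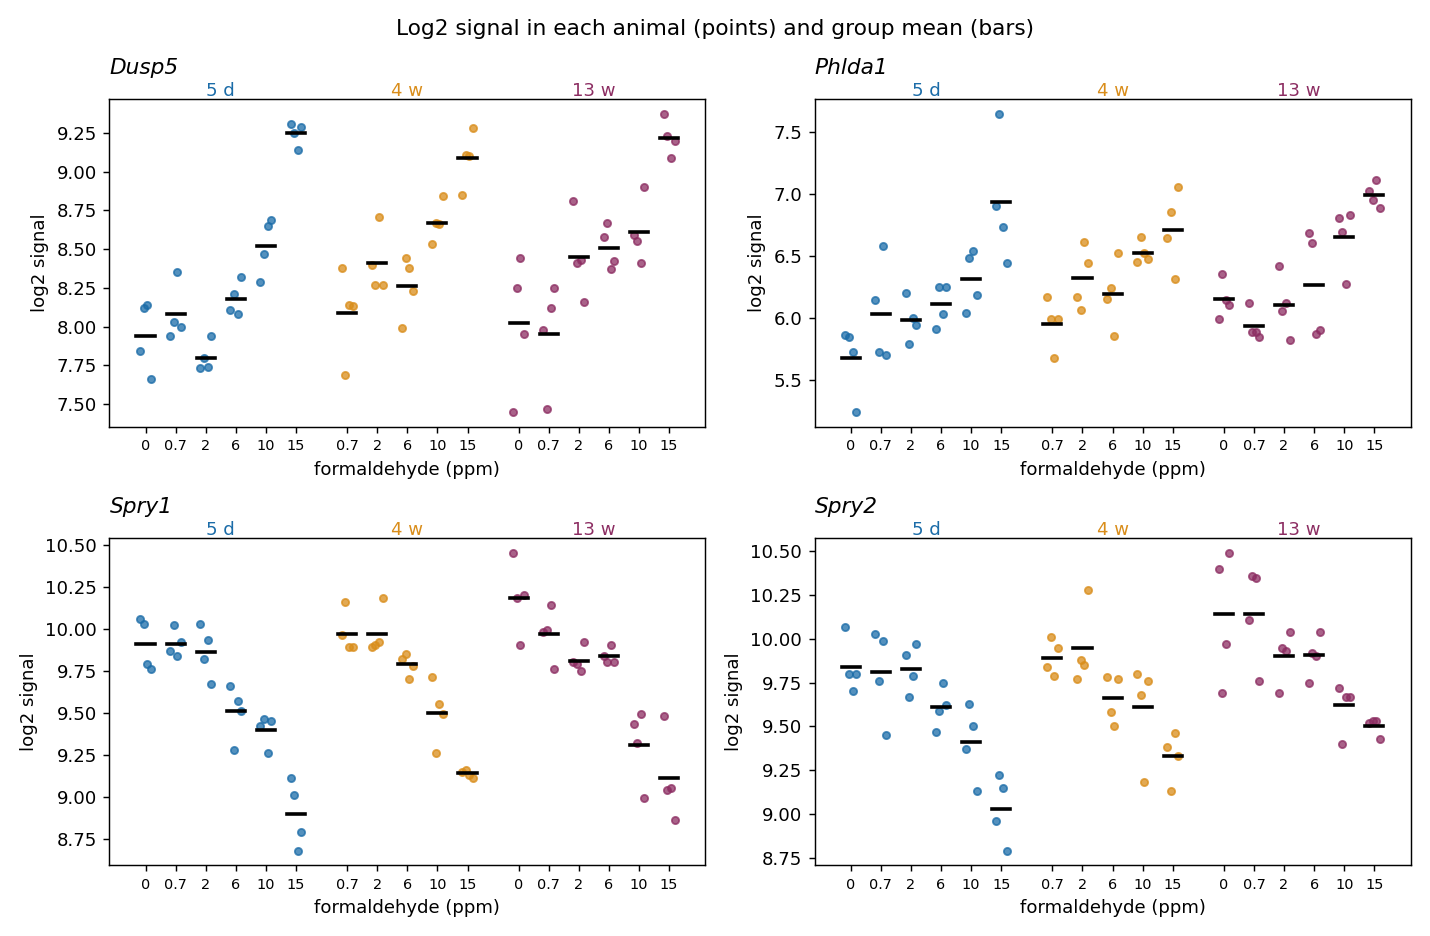
Log2 signal (vertical axis) of Dusp5, Phlda1, Spry1 and Spry2 in each animal (points, n = 4 per group) and the group mean (bars) by formaldehyde concentration in ppm at 5 d, 4 w and 13 w. The 15 ppm animals lie above every reference animal of their time for Dusp5 and Phlda1 and below every reference animal for Spry1 and Spry2.

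Spry1 was called lower at 6 ppm and above at 5 d and 13 w and at 10 ppm and above at 4 w. The gene encodes a Sprouty protein that limits signalling from FGF and other receptor tyrosine kinases. At 5 d its log2 signal was 9.11, 9.01, 8.68 and 8.79 at 15 ppm, against 10.06, 10.03, 9.79 and 9.76 at 0 ppm. At 4 w it was 9.15, 9.16, 9.13 and 9.11 at 15 ppm, against 9.96, 10.16, 9.89 and 9.89 at 0.7 ppm. At 13 w it was 9.48, 9.04, 9.05 and 8.86 at 15 ppm, against 10.45, 10.18, 9.90 and 10.20 at 0 ppm. Every 15 ppm animal was below every reference animal, and the 4 animals at 15 ppm and 4 w differed from each other by an SD of only 0.02. The log2 differences were -1.01 ± 0.11, -0.84 ± 0.11 and -1.08 ± 0.11 at 5 d, 4 w and 13 w (adjusted p = 3.65e-11, 8.49e-09 and 3.08e-12). In linear terms the 15 ppm signal was 49.5%, 56.0% and 47.4% of the reference.

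At 10 ppm the log2 difference of Spry1 was -0.51 ± 0.11, -0.47 ± 0.11 and -0.88 ± 0.11 at 5 d, 4 w and 13 w (adjusted p = 0.000445, 0.00134 and 6.86e-09). At 6 ppm it was -0.41 ± 0.11 at 5 d and -0.35 ± 0.11 at 13 w (adjusted p = 0.0115 and 0.0242), and -0.19 ± 0.11 at 4 w, where it did not pass (adjusted p = 0.414). In all 3 of those comparisons each 6 ppm animal lay below or level with the lowest reference animal. At 13 w the highest 6 ppm animal and the lowest 0 ppm animal both read 9.90, and at 5 d the 6 ppm animals read 9.66, 9.28, 9.57 and 9.51 against a lowest 0 ppm value of 9.76. The 6 ppm call at 5 d was lost without 0 ppm animal 204 or 207 or 6 ppm animal 298 (differences from -0.46 to -0.33 over the 8 ways of leaving out 1 animal), and with the actin covariate (adjusted p = 0.0898). The call at 13 w was lost without 0 ppm animal 225 or 230 or 6 ppm animal 317 or 320 (-0.44 to -0.26), and with 0.7 ppm as the reference it was -0.13 (adjusted p = 0.489). At 2 ppm and 13 w the difference of -0.37 ± 0.11, about as large as at 6 ppm, did not pass (adjusted p = 0.287). Of all genes, 0.00703% were called in that comparison. The 0 ppm group of 13 w had the highest Spry1 mean of the 17 groups, 10.18.

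Spry2 encodes a Sprouty protein that also binds the ubiquitin ligase Cbl. It fell at 15 ppm at every time and at 10 ppm at 5 d and 13 w. At 5 d its log2 signal was 8.96, 9.22, 9.15 and 8.79 at 15 ppm, against 10.07, 9.80, 9.70 and 9.80 at 0 ppm. At 4 w it was 9.38, 9.13, 9.46 and 9.33 at 15 ppm, against 9.84, 10.01, 9.79 and 9.95 at 0.7 ppm. At 13 w it was 9.52, 9.53, 9.53 and 9.43 at 15 ppm, against 10.40, 9.69, 9.97 and 10.49 at 0 ppm. The groups were separate at all 3 times, and at 13 w the 0 ppm animals were far more spread (SD 0.38) than the 15 ppm animals (SD 0.05). The log2 differences were -0.81 ± 0.14, -0.57 ± 0.14 and -0.63 ± 0.14 (adjusted p = 3.67e-06, 0.000844 and 0.000149), so that the 15 ppm signal was 56.9%, 67.5% and 64.5% of the reference. At 10 ppm the difference was -0.43 ± 0.14 at 5 d and -0.52 ± 0.14 at 13 w (adjusted p = 0.0253 and 0.00325), and -0.29 ± 0.14 at 4 w (adjusted p = 0.165). The 10 ppm call at 5 d was lost without 0 ppm animal 204 or 10 ppm animal 330 (-0.51 to -0.34), and with the actin covariate (-0.39, adjusted p = 0.054).

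Spry4, the remaining Sprouty gene, was called in no comparison. Its log2 signal at 5 d was 7.75, 7.81, 7.67 and 7.82 at 15 ppm, against 7.67, 7.55, 7.64 and 7.63 at 0 ppm. The log2 differences at 15 ppm were 0.14 at 5 d (95% interval -0.04 to 0.32), -0.03 at 4 w (-0.21 to 0.15) and -0.01 at 13 w (-0.19 to 0.18). Over all 17 groups its mean ranged from 7.57 to 7.84, and none of the 16 gaps between neighbouring means exceeded the pooled SD of an animal. The intervals exclude falls of the size fitted for Spry1 and Spry2 at 15 ppm, since the lowest bound, -0.21, is above the highest upper bound of those genes, -0.29.

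Dusp6 encodes a cytoplasmic phosphatase specific for ERK, and it rose at 15 ppm at 5 d and 13 w. At 5 d the log2 signal was 10.58, 10.71, 10.38 and 10.10 at 15 ppm, against 9.84, 10.04, 9.95 and 9.85 at 0 ppm, a difference of 0.52 ± 0.12 (adjusted p = 0.000377). At 13 w it was 10.29, 10.21, 10.32 and 10.21 at 15 ppm, against 9.91, 10.17, 9.83 and 9.96 at 0 ppm, a difference of 0.29 ± 0.12 (adjusted p = 0.0453). The groups did not overlap in either case. At 4 w it was 10.26, 10.00, 10.50 and 10.29 at 15 ppm, against 10.15, 10.23, 9.99 and 9.98 at 0.7 ppm, with overlapping groups and a difference of 0.17 ± 0.12 (adjusted p = 0.277). The change in response from 5 d to 13 w, -0.23 (95% interval -0.57 to 0.11), was not called. The 13 w call was lost in 7 of the 8 ways of leaving out 1 animal (0 ppm animals 225, 229 and 230 and 15 ppm animals 375, 377, 378 and 379; differences from 0.24 to 0.36). It was also lost with cyclic loess and with the mean of all probe sets.

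All 3 Dusp6 probe sets were called at 15 ppm and 5 d, with log2 differences of 0.52, 0.49 and 0.45 (adjusted p = 0.000446, 0.00157 and 0.00258 over 20826 probe sets). At 13 w they gave 0.29, 0.34 and 0.05, and the last was not called (adjusted p = 0.768). From 0.7 to 10 ppm Dusp6 was called at no time, with log2 differences between -0.15 and 0.16. The step from 10 to 15 ppm at 5 d was 0.58 ± 0.12, with 10.58, 10.71, 10.38 and 10.10 at 15 ppm against 9.62, 10.05, 9.85 and 9.91 at 10 ppm (adjusted p = 0.000321).

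**Figure D3:**
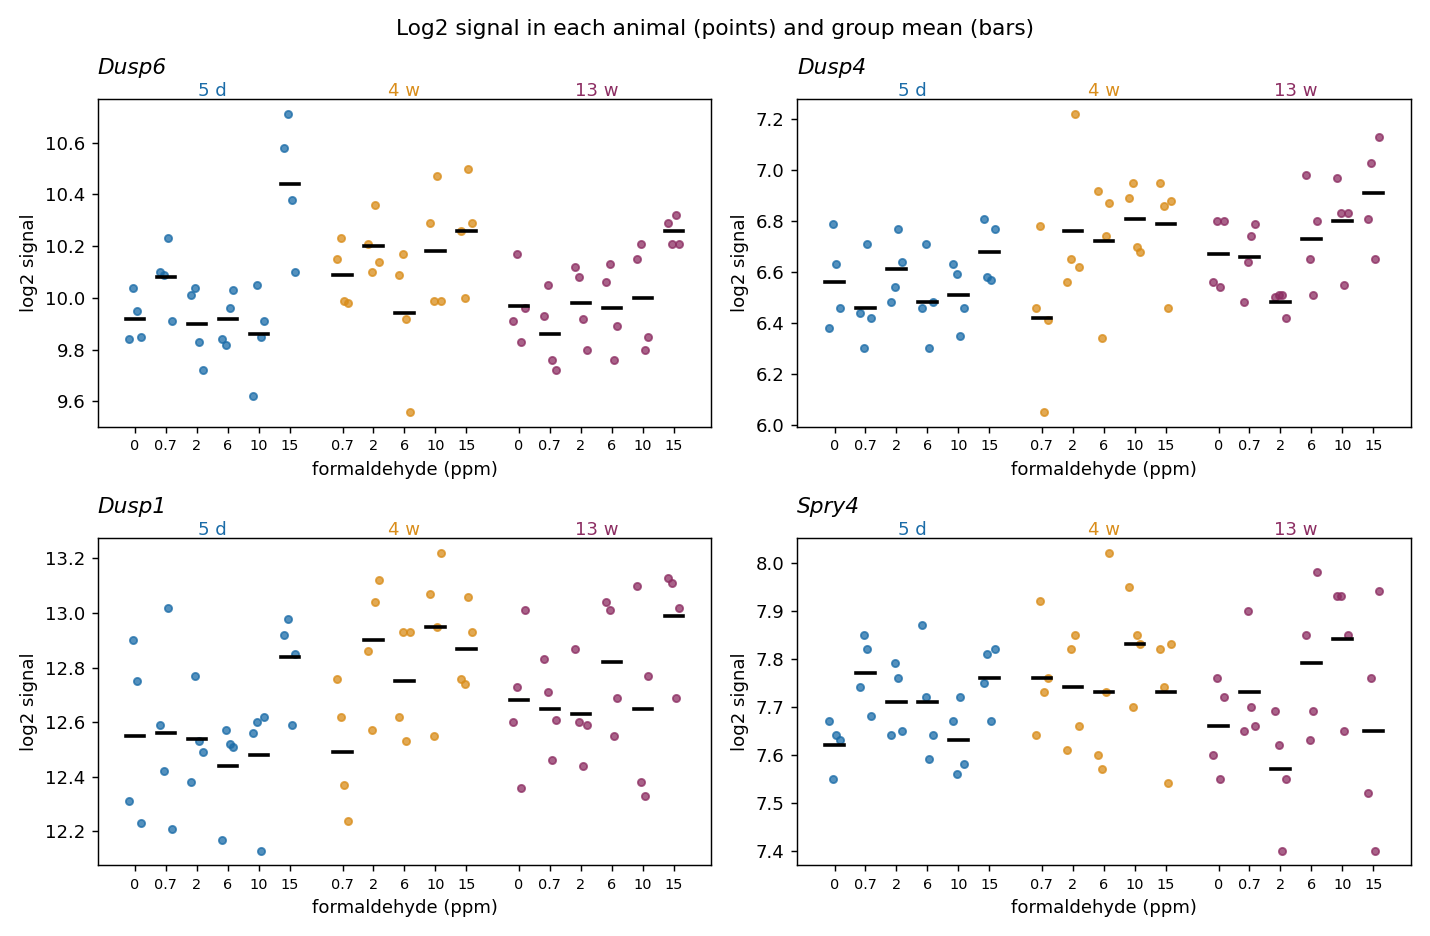
Log2 signal (vertical axis) of Dusp6, Dusp4, Dusp1 and Spry4 in each animal (points, n = 4 per group) and the group mean (bars) by formaldehyde concentration in ppm at 5 d, 4 w and 13 w. Dusp6 at 15 ppm and 5 d has the highest mean of that gene, 10.44, and the Spry4 means stay between 7.57 and 7.84.

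Dusp4, which encodes a nuclear phosphatase acting on ERK and on Jun kinases, was called at 4 w only. Its log2 signal was 6.95, 6.86, 6.46 and 6.88 at 15 ppm and 6.89, 6.95, 6.70 and 6.68 at 10 ppm, against 6.46, 6.78, 6.05 and 6.41 at 0.7 ppm. The groups overlapped, and the log2 differences were 0.37 ± 0.13 and 0.38 ± 0.13 (adjusted p = 0.025 and 0.0424). The 4 w reference had the lowest mean of the 17 groups, 6.42. At 15 ppm the difference from 0 ppm was 0.12 ± 0.13 at 5 d and 0.23 ± 0.13 at 13 w (adjusted p = 0.539 and 0.158). The 15 ppm call was lost without 0.7 ppm animal 245 or 15 ppm animal 362, 365 or 369 (0.24 to 0.49). The 10 ppm call was lost without 0.7 ppm animal 242, 245 or 250 or 10 ppm animal 331 or 333 (0.26 to 0.50), and both were lost when the 4 w arrays were fitted alone. With the actin covariate Dusp4 was called at 15 ppm at 5 d (0.49) and 13 w (0.30) as well.

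Dusp1 encodes a nuclear phosphatase of the p38, Jun and ERK kinases and is an immediate early gene. It was called in no comparison. At 5 d the log2 signal was 12.92, 12.98, 12.59 and 12.85 at 15 ppm, against 12.31, 12.90, 12.75 and 12.23 at 0 ppm, and the groups overlapped. The log2 differences at 15 ppm were 0.29 ± 0.17, 0.38 ± 0.17 and 0.31 ± 0.17 at 5 d, 4 w and 13 w (adjusted p = 0.183, 0.0707 and 0.132). At 4 w the 10 ppm difference, 0.45 ± 0.17 (adjusted p = 0.06), was called without 0.7 ppm animal 242 or 10 ppm animal 333, and the 15 ppm difference without 0.7 ppm animal 242, with values from 0.36 to 0.58 and from 0.29 to 0.47.

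The other Dusp1 probe set, 1368147_at, differed in direction from this one at 5 d. Its log2 difference from 0 ppm was -1.23 ± 0.34 at 6 ppm (adjusted p = 0.0186), -0.51 ± 0.34 at 10 ppm and -0.73 ± 0.34 at 15 ppm (adjusted p = 0.409 and 0.103), where the probe set used gave -0.10, -0.07 and 0.29. The beta-actin controls on these arrays, read at the 3′ end minus the 5′ end as a measure of RNA integrity, differed by 2.61 ± 0.17 at 6 ppm, 2.05 ± 0.25 at 10 ppm and 2.47 ± 0.08 at 15 ppm, against 1.71 ± 0.20 at 0 ppm (SD, n = 4). The mean RNA integrity number was 8.47, 8.5 and 8.32 in these exposed groups, against 7.68 at 0 ppm (n = 3, 3, 4 and 4). A larger actin difference reads as less intact RNA and a higher number as more, so the 2 measures differed in direction. At 15 ppm and 4 w the actin difference was 1.79 ± 0.26, against 1.84 ± 0.35 at 0.7 ppm. At 15 ppm and 13 w it was 1.71 ± 0.09, against 1.58 ± 0.11 at 0 ppm. The 2 probe sets gave 0.31 and 0.39 at 13 w and 15 ppm. The part of RNA integrity in the disagreement was not tested. With the actin difference as a covariate, Dusp1 by the probe set used was called at 15 ppm and 5 d (0.54, adjusted p = 0.0199). With the mean of both probe sets its difference there was -0.22. At 5 d the actin difference was itself higher in the exposed groups, which limits calls made with it as a covariate.

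**Figure D4:**
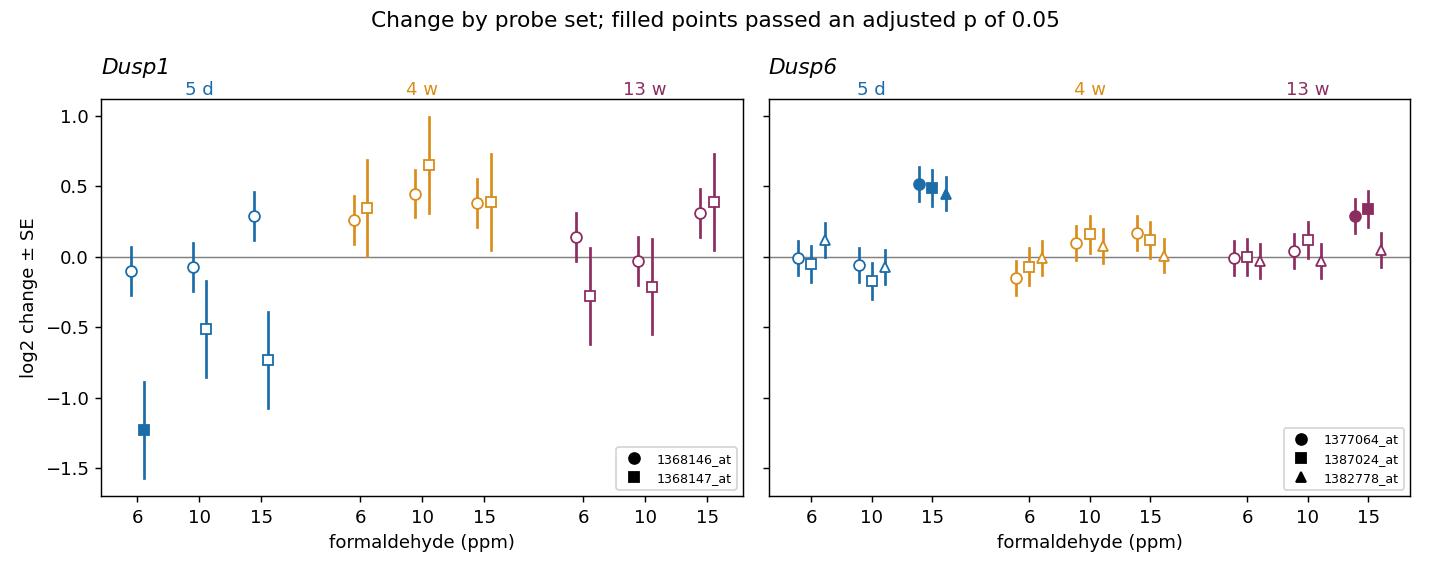
Log2 change ± SE (vertical axis) of each probe set of Dusp1 and Dusp6 at 6, 10 and 15 ppm, relative to 0 ppm at 5 d and 13 w and to 0.7 ppm at 4 w; filled points passed an adjusted p of 0.05. The Dusp6 probe sets lie together at 15 ppm and 5 d (0.45 to 0.52), whereas the Dusp1 probe sets lie apart at 6 ppm and 5 d (-1.23 and -0.10).

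Comparing 15 ppm directly with 10 ppm separated the genes further. At 5 d this step was called for 4 of the 8 genes beside 15.2% of all genes: Dusp5 at 0.72 ± 0.15, Dusp6 at 0.58 ± 0.12, Phlda1 at 0.62 ± 0.19 and Spry1 at -0.50 ± 0.11 (adjusted p = 0.000417, 0.000321, 0.0196 and 0.000635). At 4 w it was called for 1 of 8, beside 6.29% of all genes: Spry1 at -0.37 ± 0.11 (adjusted p = 0.0306). At 13 w it was called for 1 of 8, beside 12.6% of all genes: Dusp5 at 0.61 ± 0.15 (adjusted p = 0.00455). Dusp5 at 4 w had all 15 ppm animals above all 10 ppm animals but missed the threshold (0.41 ± 0.15, adjusted p = 0.0908). The Phlda1 step at 5 d was lost without 10 ppm animal 324 or 330 or 15 ppm animal 356 (0.38 to 0.78). The Spry1 step at 4 w was lost without 10 ppm animal 331 or 336 or 15 ppm animal 368 or 369 (-0.45 to -0.30). Spry2 at 5 d (-0.38, adjusted p = 0.0549) was called without 10 ppm animal 330 or 15 ppm animal 356. At 13 w, Spry1 (-0.20) was called without 15 ppm animal 375, and Spry4 (-0.19) without 15 ppm animal 379.

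The responses of the 8 genes were also compared between times. For 13 w minus 5 d, 0 of the 8 genes were called at 6, 10 and 15 ppm, beside 0%, 0.00703% and 15.3% of all genes. At 15 ppm the largest of these differences was that of Phlda1, -0.42 ± 0.27 (95% interval -0.96 to 0.12, adjusted p = 0.337). It was 0.17 with 0.7 ppm as the reference and -0.84 with the actin covariate, where it was called (adjusted p = 0.0115). That of Dusp5 was -0.11 (-0.54 to 0.32). The interval for Spry1 was -0.37 to 0.24 and that for Spry2 was -0.22 to 0.58, so changes in response of up to about those sizes could have gone uncalled. At 10 ppm the Spry1 response differed by -0.36 ± 0.15 (adjusted p = 0.759). With 0.7 ppm as the reference, 0 of 8 were called for the 15 ppm response at 4 w minus 5 d and at 13 w minus 4 w, beside 3.45% and 0.0633% of all genes. Between the 0 ppm animals of 13 w and 5 d, 0 of 8 were called, beside 2.24% of all genes.

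Across the 17 group means some of the 8 genes ran together, which is a description of groups that share doses and has no test. Spry1 and Spry2 had a Pearson r of 0.93 and Dusp5 and Phlda1 of 0.94, while Dusp5 and Spry1 had -0.87. Within groups, over the 68 arrays after removal of group means, the same pairs had r of 0.26, 0.40 and -0.37. Dusp1 and Dusp4 had 0.87 over group means and 0.32 within groups. Spry4 had no r outside -0.17 to 0.34 with any other member over group means.

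The genes whose means ran most like each member, among 11740 genes that reached a mean of 6 in some group, differed between members in part, with Insl3, Hbegf and Efhd2 shared by a pair of members each. Dusp1 lay closest over 17 group means to the immediate early genes Jun (r = 0.94) and Nr4a1 (0.902) and to Insl3 (0.858), with 2 genes over 0.9. Dusp5 lay closest to Efhd2 (0.957), Tiparp (0.951) and Hbegf (0.947), and Phlda1 to Sdad1 (0.962), Hbegf (0.953) and Efhd2 (0.952). These were among many: 69 genes lay over 0.9 and 136 under -0.9 for Dusp5, and 75 and 241 for Phlda1. Hbegf encodes heparin-binding EGF-like growth factor, a ligand of the EGF receptor. Dusp6 lay closest to the glycerol channel gene Aqp9 (0.906), Dnajc3 (0.86) and Ehd4 (0.857), and Dusp4 to Brap (0.884), Insl3 (0.88) and Slc25a45 (0.863). Spry1 lay closest to Mia2 (0.977), Enpp1 (0.976) and Alkbh5 (0.969), with 388 genes over 0.9 and 675 under -0.9. Spry2 lay closest to Csnk1e (0.963), Zhx2 (0.962) and Rbpms (0.96), with 199 and 215 such genes. Spry4 had no gene over 0.9, and its nearest were Kcnk3 (0.837), Taar1 (0.765) and Jph2 (0.681).

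Genes that feed the cascade were measured on the same arrays. As a background for the list counts at 15 ppm, 18.3% of all genes were higher and 19.5% lower at 5 d, 21.3% and 16.1% at 4 w, and 23.5% and 20.6% at 13 w. Of the genes called at 5 d, 48.4% were higher, and 59.5% with cyclic loess. No list was tested against the rest of the genes or against another list. Of 10 measured genes of the EGF receptor family and its ligands, 4 rose and 1 fell at 15 ppm and 5 d, 5 rose and 1 fell at 4 w, and 5 rose and 2 fell at 13 w. The ligand gene Hbegf rose by 2.30 ± 0.18 at 5 d (adjusted p = 2.84e-15), 2.07 ± 0.18 at 4 w and 2.14 ± 0.18 at 13 w, and the ligand gene Ereg by 2.97 ± 0.24, 3.10 ± 0.24 and 3.30 ± 0.24, all from low reference means. Nrg1, a ligand of the receptors Erbb3 and Erbb4, rose by 1.17 ± 0.16, 1.15 ± 0.16 and 1.49 ± 0.16. At 6 ppm and 5 d Spry1 was the only member called. Areg, Ereg and Hbegf were higher there than at 0 ppm (2.89 ± 0.32, 1.45 ± 0.24 and 0.62 ± 0.18). So were the phosphatase gene Dusp7 and the Phlda1 relative Phlda2 (0.48 ± 0.15 and 0.59 ± 0.14, adjusted p = 0.0297 and 0.00601). The receptor gene Egfr and the cascade gene Nras were also higher (0.41 ± 0.13 and 0.36 ± 0.08, adjusted p = 0.0405 and 0.00188). Of the genes induced by ERK, Fosl1 and Ier3 were higher (1.73 ± 0.21 and 0.56 ± 0.18, adjusted p = 7.69e-08 and 0.0392). The inhibitor gene Lrig1, the cascade gene Grb2 and the ligand gene Fgf1 were lower (-0.50 ± 0.10, -0.22 ± 0.05 and -0.38 ± 0.11, adjusted p = 0.00111, 0.00398 and 0.0206). Of 10 measured genes of FGF receptors and ligands, 0 rose at 15 ppm at any time, and 3, 1 and 4 fell at 5 d, 4 w and 13 w, beside 19.5%, 16.1% and 20.6% of all genes. Fgfr3, an FGF receptor gene, fell by 0.98 ± 0.15 at 5 d (adjusted p = 3.41e-07), and Fgf1, an FGF ligand gene, by 0.68 ± 0.11, 0.49 ± 0.11 and 1.34 ± 0.11 at the 3 times.

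Of 9 measured genes of the Ras to ERK cascade, 2 rose and 2 fell at 15 ppm and 5 d, 3 rose and 1 fell at 4 w, and 3 rose and 2 fell at 13 w. Nras, one of the Ras genes, rose by 0.28 ± 0.08 at 5 d and 0.83 ± 0.08 at 13 w, and Map2k1, which encodes a kinase that activates ERK, by 0.47 ± 0.07 and 0.31 ± 0.07. Among 16 transcription factors and targets induced by ERK, 8, 7 and 7 rose and 0 fell at 5 d, 4 w and 13 w. Fosl1, a subunit of AP-1, rose by 3.32 ± 0.21, 3.28 ± 0.21 and 3.25 ± 0.21, Ier3 by 1.38 ± 0.18, 1.37 ± 0.18 and 1.38 ± 0.18, and Myc by 1.01 ± 0.18, 1.19 ± 0.18 and 1.29 ± 0.18. Etv4, a Capicua target in human cells, rose by 1.08 ± 0.20 at 4 w and 1.73 ± 0.20 at 13 w. The median log2 change of this list was 0.42, 0.28 and 0.45, beside -0.01, 0.01 and -0.02 over all genes.

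Other listed phosphatases and inhibitors are set beside the 37.7%, 37.4% and 44.2% of all genes called at 15 ppm. Of 7 measured dual-specificity phosphatase genes outside the set, 3, 3 and 2 rose and 0 fell at 15 ppm at the 3 times. Dusp7, which like Dusp6 encodes a cytoplasmic ERK phosphatase, rose by 1.17 ± 0.15, 1.15 ± 0.15 and 1.12 ± 0.15 at 5 d, 4 w and 13 w (adjusted p = 4.42e-09, 8.37e-09 and 7.69e-09). Dusp2, a phosphatase gene known from activated leukocytes, rose by 2.49 ± 0.23 at 5 d and 1.58 ± 0.23 at 4 w, and was not called at 13 w. Of 10 genes listed as other inhibitors of receptor and Ras signalling, 4 rose and 1 fell at 5 d, 2 rose and 3 fell at 4 w, and 3 rose and 1 fell at 13 w. This list includes Phlda2 and Phlda3, which were entered as relatives of Phlda1 and not as known inhibitors of the cascade. Phlda2 and Phlda3 rose by 1.47 ± 0.14 and 1.00 ± 0.13 at 5 d and by 1.61 ± 0.14 and 1.39 ± 0.13 at 13 w, and are part of those counts. Lrig1, which encodes a transmembrane inhibitor of EGF receptors, fell by 1.01 ± 0.10, 0.88 ± 0.10 and 0.99 ± 0.10, the direction of Spry1 and Spry2.

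Marker genes of other cells moved on some of the same arrays. The mean log2 signal of 6 neutrophil genes ranged over 9.43 to 10.12 at 15 ppm and 5 d, against 6.56 to 7.69 at 0 ppm. At 4 w it ranged over 8.02 to 8.88 at 15 ppm, against 6.16 to 6.81 at 0.7 ppm, and at 13 w over 6.96 to 8.00 at 15 ppm, against 6.20 to 7.41 at 0 ppm. The neutrophil means of the 2 groups overlapped at 13 w and were separate at 5 d and 4 w. At 10 ppm, 0, 4 and 0 of the 6 neutrophil genes were called at 5 d, 4 w and 13 w. Macrophage and dendritic cell genes were higher for 5 of 8 at 15 ppm and 5 d, for 3 of 8 at 4 w and for 1 of 8 at 13 w, where 2 were lower. T and NK lymphocyte genes were higher for 5, 3 and 0 of 8, with 0, 1 and 3 lower. The log2 difference of Dusp6 at 15 ppm was 0.52, 0.17 and 0.29 at the 3 times, and Dusp5, Phlda1, Spry1 and Spry2 were called at all of them. The part of these cells in the changes of the members was not tested.

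Of 8 measured epithelial genes, 4, 4 and 6 rose and 2, 2 and 2 fell at 15 ppm at the 3 times, and their mean log2 signal was 13.04, 13.18 and 13.20, against 12.82, 12.74 and 12.76 in the reference. Of 4 measured ciliated cell genes, 0 rose and 3, 2 and 4 fell, with a mean log2 signal of 9.73, 9.62 and 9.16 at 15 ppm, against 10.26, 10.10 and 10.00. Genes of fibroblasts fell for 0, 1 and 3 of 7 and rose for none, and those of endothelium and of olfactory neurons were called for none at 15 ppm. No marker was at 0, since RMA gives every probe set a signal. The olfactory genes were well above the array medians of 6.82 to 6.96, although the olfactory lining was described as removed. Their mean log2 signals at 0 ppm and 5 d ran from 10.58 (Ano2) to 12.78 (Omp). The SE of a difference was 0.61 to 0.72 for these genes, against a median of 0.104 over all genes. Sizeable changes in them could therefore have gone uncalled. Ciliated genes fell on the arrays on which Spry1 and Spry2 fell at 15 ppm, and at 10 ppm 0 of the 4 were called at each of the 3 times. Their part in the Sprouty changes was not tested.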

How the data were processed

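The authors deposited log2 signals. The submitters' processing notes name GCOS 1.0 and RMA, the second without a version. The signals were used without further scaling. The 31099 probe sets held no missing value. Probe sets naming several genes or none, and control probe sets, were left out. Of several probe sets of a gene, the one with the highest mean over the 68 arrays stood for it, which left 14217 genes. With 4 arrays in a group, the typical SE of a log2 difference (median of all genes) was 0.104, and the number of arrays limits the precision.

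Groups came from the labels. For 19 of the 20 arrays of 4 w the treatment field gives 5 days while title, description and time tag give 4 weeks, which were followed. The series text's first time was treated as the 5 d of the labels. Animals were independent replicates, and no label pairs them.

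Group means were estimated over all arrays in a single fit with limma 3.58.1 (lmFit and eBayes, R 4.3.3), with 51 degrees of freedom from residuals and 2.85 from the prior. Contrasts compared each dose with its reference, 15 with 10 ppm, responses between times and the 0 ppm groups, with Benjamini-Hochberg adjustment within each contrast. The fit was tested on simulated data first. Pearson correlations over group means are descriptions. The members and gene lists were chosen with earlier results of these data known, so no list is independent evidence. Genes named are the members, the 3 genes most like each by group means, and called genes of the lists, up to 4 per list and comparison by smallest adjusted p. Promoter windows and chromosome positions are from RefSeq (GRCr8), and motifs were searched in the 200 bases before each start. Alternatives were array centring, cyclic loess, mean of probe sets, a signal filter, array weights, each time alone, trended and robust eBayes, RNA integrity number and beta-actin difference as covariates, arrays without that number left out, a 1.5-fold minimum, 0.7 ppm as reference, and leaving out each animal.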

Additional observations from a re-analysis of the deposited data

Results flagged for a closer look

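The 8 genes in 17 groups of 4 animals gave 136 sets of values, and in 7 of them 1 animal lay far from the other 3 by Dixon's test at its 95% critical value, and chance gives about 1 in 20. For Dusp1 these were animal 295 at 6 ppm and 5 d, with a log2 signal of 12.17, and animal 329 at 10 ppm and 5 d, with 12.13, both low. For Dusp4 it was animal 276 at 2 ppm and 4 w, with 7.22, and for Spry1 animal 277 of the same group, with 10.18, both high. For Spry2 the low animals were 346 at 10 ppm and 13 w, with 9.40, and 379 at 15 ppm and 13 w, with 9.43. For Phlda1 it was animal 257 at 0.7 ppm and 13 w, with 6.12, which was high.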

How the results depend on the processing

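The direction of every called change of the 8 genes held under each alternative that gave it a value, including the leaving out of each animal, and 0 reversed, while uncalled values changed sign under several. Of 184 changes of a member, trended and robust eBayes altered 0 calls, a signal filter gained 1 and the mean of all probe sets lost 1, while a 1.5-fold minimum lost 18, the RNA integrity covariate lost 5 and gained 1, omission of arrays without that number lost 3, array centring lost 4, cyclic loess lost 3 and gained 1, array weights gained 6 and the beta-actin covariate lost 2 and gained 7. Of 136 changes, fitting each time alone lost 6, and of 88, 0.7 ppm as reference lost 2. Dusp5, Phlda1, Spry1 and Spry2 were called at 15 ppm at every time under each alternative other than the 1.5-fold minimum, which ended the Spry2 call at 4 w. Array centring took the calls at 10 ppm and 4 w to 2 and the 15 against 10 ppm calls at 4 w to 0, and the RNA integrity covariate also took those 15 against 10 ppm calls to 0. Array weights gave 2 calls at 6 ppm and 5 d, 1 at 2 ppm and 13 w and 2 for 15 against 10 ppm at 13 w. Calls at 6 ppm and 13 w went to 0 with that time fitted alone, and to 1 without the 5 arrays lacking an RNA integrity number or with 0.7 ppm as reference. The actin covariate gave 1 call (Phlda1, -0.84) for the 15 ppm response at 13 w minus 5 d. A 1.5-fold minimum left 0, 1, 1, 3, 0 and 2 calls at 6 and 10 ppm at 5 d, 10 and 15 ppm at 4 w and 6 and 10 ppm at 13 w, and 2 and 0 for 15 against 10 ppm at 5 d and 4 w. The cause was not tested in these cases. Without 1 animal, calls ranged over 0 to 1 at 6 ppm and 5 d, 2 to 4 at 10 ppm and 4 w, 0 to 2 at 6 ppm and 13 w, and for 15 against 10 ppm 0 to 1 at 4 w and 1 to 2 at 13 w. No paired analysis was possible because no replicate number is shared between groups. Low signal limits Phlda1.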
